A study of Homo sapiens with 5 samples.

Results

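Fibronectin and a group of matricellular glycoproteins were followed in LX-2, a human cell line derived from hepatic stellate cells, which deposit much of the scar matrix in a damaged liver. The 8 genes were FN1, TNC, POSTN, SPARC, TGFBI, THBS1, THBS2 and THBS3, taken as a named list and located by Ensembl ID among the 19936 human genes with a value in every library. RNA was sequenced from 3 libraries of cells given small interfering RNA (siRNA) against LIX1L (siLIX1L 1, 2 and 3) and from 2 libraries of cells given control siRNA (control 1 and 2), all harvested 48 h after transfection. All 5 libraries come from 1 cell line, and no source used here gives the number or sequence of the siRNAs. The comparison asks how the matrix genes of a stellate cell line stand when LIX1L, a gene the series title ties to fibrosis, is reduced.

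Fibronectin is a secreted adhesive protein that cells pull into fibrils through integrins, and its fibrils form an early scaffold on which collagens are laid. Matricellular proteins are secreted into the same matrix but act mainly as signals between matrix and cell: they bind integrins, syndecans and growth factors and tune adhesion. In injured liver, activated stellate cells are a main source of these proteins, and transforming growth factor β (TGF-β) is a well known inducer of several of them.

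None of the 6 genes that could be tested passed the threshold in limma, which 1.87% of all 6464 genes tested passed. FN1 had the smallest limma p of the 6, with a limma adjusted p of 0.137 and a mean 1.41 times the control mean. It stood in all 3 siLIX1L libraries above both controls, as did 23.5% of all genes tested. SPARC, TGFBI, THBS2 and POSTN each differed by a larger fold between the 2 control libraries than between the group means. So, narrowly, did TNC, at 1.31-fold between the controls and 1.29-fold between the means. THBS3, at 25 to 192 reads a library, was 3.47-fold lower by mean after LIX1L siRNA. DESeq2 called it, as it called 12.6% of all genes, and edgeR did not. THBS3 was under the minimum level for limma.

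Libraries held 14856104 to 17811940 reads over genes after LIX1L siRNA and 14877647 to 18294056 with control siRNA. LIX1L itself had 98, 107 and 65 reads in siLIX1L 1, 2 and 3, against 393 and 649 reads in control 1 and 2 (limma adjusted p = 0.0384, and 0.0715 to 0.228 without any 1 siLIX1L library); it reached 1 FPKM, and so entered this test, through the controls alone, and the antisense gene LIX1L-AS1 overlaps it. Of 12 stellate and myofibroblast markers 10 had a mean of at least 1 RPM (reads per 1000000 reads over genes). Their sums were 4736 to 5518 RPM in siLIX1L libraries and 3157 to 8152 RPM in controls, mostly COL1A1. ACTA2 had 8.41 to 14.8 RPM in siLIX1L libraries, against 39.0 and 35.4 RPM in control 1 and 2. COL1A2 and PDGFRA were also below both controls in every siLIX1L library, as were 23% of the 6464 genes tested in limma. For the other markers with reads the groups overlapped. LRAT, the retinol-storing enzyme of quiescent cells, had no reads in any library. Summed hepatocyte markers were 2.32 to 4.32 RPM in siLIX1L libraries and 4.10 to 7.43 RPM in controls, and endothelial markers 4.85 to 8.67 RPM in siLIX1L libraries and 4.43 to 9.75 RPM in controls. Summed macrophage markers were 5.73 to 9.47 RPM in siLIX1L libraries and 11.02 to 37.6 RPM in controls, mostly CD14, while CD68 had 1 read or none. Summed epithelial markers were 54.0 to 105 RPM in siLIX1L libraries and 31.4 to 46.5 RPM in controls, nearly all SOX9, while EPCAM had at most 4 reads. Mitochondrially encoded genes took 1.08 to 1.29% of reads in siLIX1L libraries and 2.24 to 3.35% in controls, and the part of these differences in the results was not tested. Chi-square per gene was 5.59 between siLIX1L 1 and 2 and at least 55.4 between the libraries of every other pair, so siLIX1L 1 and 2 differed beyond counting noise but far less than the rest. Separate cultures are not stated in the labels, and p-values therefore cover the spread among these 5 libraries alone, part of which may be technical. In bulk RNA, fewer cells that make a transcript and less of it per cell cannot be told apart.

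Levels between genes were compared per length, as RPM per kilobase of the longest coding transcript. By group mean SPARC, FN1 and TGFBI were the highest: their levels on this scale were 409 ± 51.7, 308 ± 18.4 and 308 ± 41.8 after LIX1L siRNA, against 339 ± 307, 219 ± 24.2 and 580 ± 377 with control siRNA (SD, n = 3 and n = 2). THBS2 and TNC came next, at 133 ± 44.9 and 91.4 ± 32.4 after LIX1L siRNA and 159 ± 79.3 and 71.1 ± 13.5 with control siRNA. THBS1 followed at 31.3 ± 7.09 after LIX1L siRNA and 26.1 ± 0.453 with control siRNA. POSTN and THBS3 had the lowest means, at 4.92 ± 3.05 and 0.730 ± 0.193 after LIX1L siRNA and 17.0 ± 14.1 and 2.53 ± 1.06 with control siRNA. Among neighbours in this order, FN1 and TGFBI overlapped after LIX1L siRNA, where SPARC lay above both, and in the controls the range of SPARC took in FN1 and overlapped TGFBI. THBS2 lay below these 3 genes in every siLIX1L library, but in the controls its range, 103 to 215, overlapped those of FN1, 202 to 236, and SPARC, 122 to 556. THBS2 and TNC overlapped after LIX1L siRNA and not in the controls. The step from TNC down to THBS1 exceeded the spread in both groups. POSTN lay below THBS1 in every siLIX1L library, whereas in control 2 it was above it, at 27.0 against 26.5 for THBS1, and THBS3 was the lowest in all 5 libraries. By the same level, SPARC ranked 64 to 101 among 19665 genes in the siLIX1L libraries, and 481 and 78 in control 1 and 2, whereas FN1 ranked 102 to 130 in the siLIX1L libraries, and 193 and 274 in control 1 and 2.

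**Figure D1:**
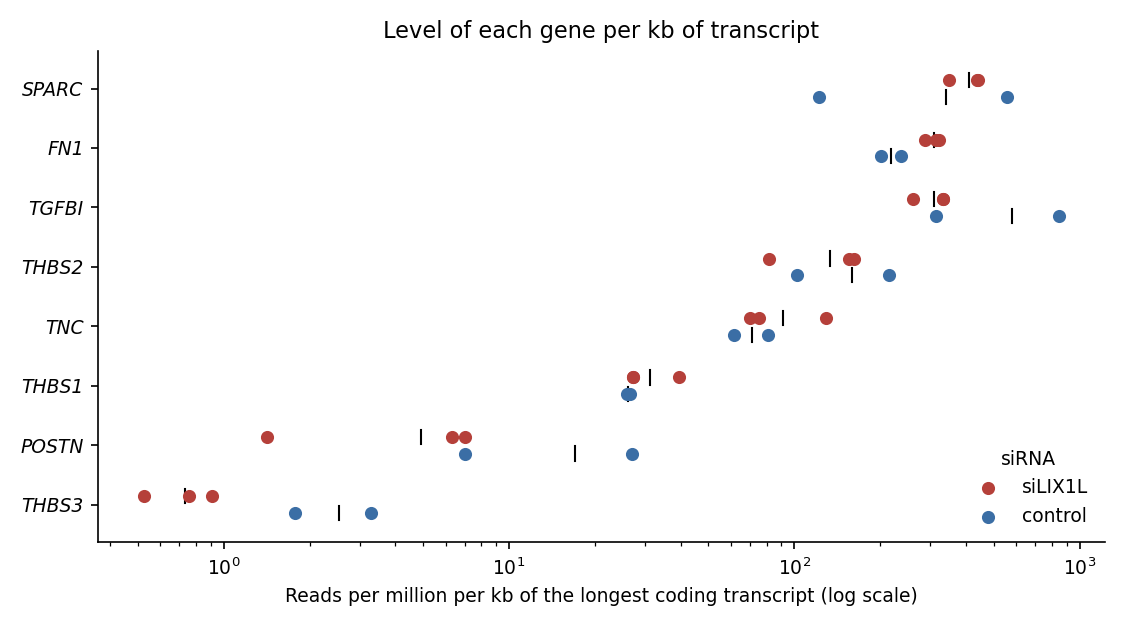
Level of each of the 8 genes in each library as RPM per kilobase of the longest coding transcript, on a log axis (red, siLIX1L, n = 3; blue, control, n = 2; black ticks, means). SPARC, FN1 and TGFBI have the highest means and POSTN and THBS3 the lowest in both groups. In control 2 THBS2 (215) lies above FN1 (202) and POSTN (27.0) above THBS1 (26.5), and the controls of SPARC lie 4.58-fold apart.

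Together the 8 genes took 0.680, 0.717 and 0.659% of all reads in siLIX1L 1, 2 and 3, against 0.487 and 0.825% in control 1 and 2. The siLIX1L libraries thus lay between the controls in total. The makeup was less alike: FN1 gave 37.6, 40.0 and 42.5% of these reads in siLIX1L 1, 2 and 3, and 43.1 and 21.7% in control 1 and 2. SPARC gave 23.9, 22.6 and 19.6% in siLIX1L 1, 2 and 3, and 9.24 and 25.0% in control 1 and 2. TGFBI gave 13.7, 12.9 and 11.05% in siLIX1L 1, 2 and 3, and 18.0 and 28.8% in control 1 and 2.

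All 8 genes matched a RefSeq promoter window (build GRCh38.p14). The 200 bases before the RefSeq start are printed for FN1, TNC and THBS1, and for the pair THBS2 and TGFBI. By the root mean square difference defined below, the profiles within each of these sets were the closest among the 8 genes. For FN1, TNC, THBS2 and TGFBI the gene coordinates given below reach into the printed stretch, as the 2 annotations place the start differently. Capitals mark matches, on either strand, to 7 motifs spelled out after the sequences.
FN1 (chr2:215436069-215436268, minus strand): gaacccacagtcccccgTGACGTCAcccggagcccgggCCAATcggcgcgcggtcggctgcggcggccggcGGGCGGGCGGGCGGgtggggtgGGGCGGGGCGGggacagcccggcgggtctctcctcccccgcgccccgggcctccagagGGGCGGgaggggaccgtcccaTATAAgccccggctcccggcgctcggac
TNC (chr9:115118158-115118357, minus strand): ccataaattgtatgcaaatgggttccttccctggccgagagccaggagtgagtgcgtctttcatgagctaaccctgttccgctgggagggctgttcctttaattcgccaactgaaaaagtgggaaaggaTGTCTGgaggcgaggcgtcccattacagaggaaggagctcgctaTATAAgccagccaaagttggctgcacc
THBS1 (chr15:39580879-39581078, plus strand): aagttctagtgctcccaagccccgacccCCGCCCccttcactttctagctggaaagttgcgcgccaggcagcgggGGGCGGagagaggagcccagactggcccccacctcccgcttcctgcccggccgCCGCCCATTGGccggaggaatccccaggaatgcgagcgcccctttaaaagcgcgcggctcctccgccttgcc
THBS2 (chr6:169253847-169254046, minus strand): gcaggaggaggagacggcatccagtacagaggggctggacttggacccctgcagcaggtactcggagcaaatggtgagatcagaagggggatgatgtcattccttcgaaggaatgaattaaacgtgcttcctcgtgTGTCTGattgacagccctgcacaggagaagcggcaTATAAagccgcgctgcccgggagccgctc
TGFBI (chr5:136028788-136028987, plus strand): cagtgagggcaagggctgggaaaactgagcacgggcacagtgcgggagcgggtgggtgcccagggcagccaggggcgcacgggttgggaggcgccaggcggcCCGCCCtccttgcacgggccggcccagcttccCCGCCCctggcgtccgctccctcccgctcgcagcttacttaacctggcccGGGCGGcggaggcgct

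The TATA box, searched as TATAA, lay 28, 27, 29 and 29 bases before the start of FN1, TNC, THBS2 and POSTN, on the gene's strand. Of all 35116 windows, 3.70% had it on that strand between 20 and 35 bases before the start, and 18.9% anywhere on either strand in the 250 bases searched. FN1 alone of the 8 held the cAMP response element TGACGTCA, 183 bases before its start, which 1.65% of all windows hold. FN1 also had 6 copies of the GC box GGGCGG, some of them overlapping. The GC box was found for 5 of the 8 genes (42.6% of all windows) and the CCAAT box, searched as CCAAT, for 3 of the 8 (32.0%). The SMAD element, searched as CAGACA, was found in THBS2 and TNC (13.6% of windows). The EGR1 site, GCGNGGGCG, was found in THBS1, where it overlaps a GC box (8.41% of windows). The AP-1 site, TGANTCA, was found in POSTN (6.57% of windows), and SPARC had no match to any of the 7 in this window. TNC and THBS1, the closest pair across libraries, shared the GC box alone. These are matches of letters and were not tested for binding.

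FN1 (ENSG00000115414, GRCh38 chromosome 2, 215360440 to 215436172, minus strand) encodes fibronectin. It had 2558, 2872 and 2800 RPM in siLIX1L 1, 2 and 3, against 2099 and 1795 RPM in control 1 and 2. Every siLIX1L library was above both controls, a separation in this direction that 23.5% of the 6464 genes tested showed; 46.5% of genes had groups that did not overlap in either direction. The mean was 36.2 ± 2.17 FPKM (SD, n = 3) after LIX1L siRNA and 25.7 ± 2.85 FPKM (SD, n = 2) with control siRNA. As tested, in log2(FPKM + 1), the difference was 0.48 (SE 0.17, 95% interval 0.073 to 0.89), with a limma adjusted p of 0.137, where 1.87% of genes passed at 0.05 (0.743% higher and 1.13% lower). FN1 passed without control 1 (difference 0.59, limma adjusted p = 0.0462, where 24.1% of genes passed), and in none of the other 13 settings. With 1 control left, the spread within groups comes from the siLIX1L libraries alone, and the lone control is assumed to vary like them; this holds for every value given without a control. Its 2 controls were 1.17-fold apart, and 70.4% of the genes tested had controls at least as far apart.

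TNC (ENSG00000041982, chromosome 9, 115019578 to 115118257, minus strand) encodes tenascin C, which loosens adhesion to fibronectin and appears in remodelling tissue. It had 535, 577 and 983 RPM in siLIX1L 1, 2 and 3, against 616 and 471 RPM in control 1 and 2. SiLIX1L 1 and 2 lay between the controls, and siLIX1L 3 stood 1.77-fold above the mean of siLIX1L 1 and 2, a gap in log2 RPM that 6.57% of tested genes equalled or exceeded. The difference was 0.28 (SE 0.27, 95% interval -0.36 to 0.92, limma adjusted p = 0.530) with all libraries and 0.037 (limma adjusted p = 0.911) without siLIX1L 3.

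SPARC (ENSG00000113140, chromosome 5, 151661096 to 151687165, minus strand) encodes osteonectin, a collagen-binding protein made by matrix-producing cells. It had 1625, 1622 and 1292 RPM in siLIX1L 1, 2 and 3, against 450.0 and 2059 RPM in control 1 and 2. All 3 siLIX1L libraries lay between the controls, which were 4.58-fold apart; 0.619% of tested genes had controls as far apart or farther. The difference was 0.62 (SE 0.57, 95% interval -0.76 to 2.0, limma adjusted p = 0.517). It was 1.68 without control 2 (limma adjusted p = 0.0381, where 4.09% of genes passed) and -0.45 without control 1 (limma adjusted p = 0.146), so its sign depended on which control was kept.

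TGFBI and POSTN encode the related fasciclin-domain proteins βig-h3 and periostin, both named or known for induction by TGF-β. TGFBI (ENSG00000120708, chromosome 5, 136028895 to 136063818, plus strand) had 934, 927 and 728 RPM in siLIX1L 1, 2 and 3, against 877 and 2373 RPM in control 1 and 2. Control 2 stood alone, 2.71-fold above control 1, which lay among the siLIX1L libraries. The difference was -0.73 (SE 0.40, 95% interval -1.70 to 0.23, limma adjusted p = 0.283). Against control 2 alone it was -1.43 (limma adjusted p = 0.0190, where 24.1% of genes passed), and against control 1 alone -0.031 (limma adjusted p = 0.928, where 4.09% passed). Both leave 1 control library, with the spread taken from the siLIX1L libraries.

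POSTN (ENSG00000133110, chromosome 13, 37562583 to 37598844, minus strand) had 351, 323 and 85 reads in siLIX1L 1, 2 and 3, against 352 and 1664 reads in control 1 and 2. In RPM these were 23.6, 21.4 and 4.77 in siLIX1L 1, 2 and 3, and 23.7 and 91.0 in control 1 and 2. Control 1 was level with siLIX1L 1 and 2, control 2 was 3.84-fold above control 1, and siLIX1L 3 was 4.72-fold below the mean of siLIX1L 1 and 2. The groups did not overlap, yet siLIX1L 1 and control 1 were 1 read apart, within counting error. Of the 6464 genes tested in limma, 46.5% had groups that did not overlap, but POSTN is not among them. The mean was 3.45-fold lower after LIX1L siRNA, 5.48-fold lower against control 2 alone and 1.43-fold lower against control 1 alone. With 1 library at 1 FPKM or above, POSTN did not enter the limma test. EdgeR on the recovered reads gave a log2 fold change of -1.84 (adjusted p = 0.167) and DESeq2 one of -1.82 (adjusted p = 0.251).

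Thrombospondins are calcium-binding matrix glycoproteins. Thrombospondin 1 and 2 bind the receptors CD47 and CD36, and thrombospondin 1 can release TGF-β from its latent form. THBS1 (ENSG00000137801, chromosome 15, 39581079 to 39599466, plus strand) had 212, 211 and 307 RPM in siLIX1L 1, 2 and 3, against 201 and 206 RPM in control 1 and 2. The groups did not overlap, with siLIX1L libraries higher, as in 23.5% of all genes tested. SiLIX1L 1 and 2 lay just above the controls, and siLIX1L 3 stood 1.45-fold above the mean of siLIX1L 1 and 2. The difference was 0.22 (SE 0.20, 95% interval -0.27 to 0.71, limma adjusted p = 0.518), and 0.054 without siLIX1L 3 (limma adjusted p = 0.835).

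THBS2 (ENSG00000186340, chromosome 6, 169215780 to 169254044, minus strand) had 906, 941 and 472 RPM in siLIX1L 1, 2 and 3, against 596 and 1248 RPM in control 1 and 2. The groups overlapped, with siLIX1L 3 the lowest and control 2 the highest of the 5 libraries. The difference was -0.21 (SE 0.40, 95% interval -1.18 to 0.75, limma adjusted p = 0.759), 0.30 without control 2 (limma adjusted p = 0.664) and 0.090 without siLIX1L 3 (limma adjusted p = 0.895). Per kilobase of transcript, THBS2 made up 84.9, 85.2 and 66.9% of the 3 thrombospondins in siLIX1L 1, 2 and 3, and 78.8 and 87.8% in control 1 and 2. THBS1 made up 14.9, 14.3 and 32.5% in siLIX1L 1, 2 and 3, and 19.8 and 10.8% in control 1 and 2, so siLIX1L 3 had the most even mix of the 2 genes.

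THBS3 (ENSG00000169231, chromosome 1, 155195588 to 155209051, minus strand) is the least abundant of the 8. It had 25, 44 and 43 reads in siLIX1L 1, 2 and 3, against 85 and 192 reads in control 1 and 2. All 3 siLIX1L libraries were below both controls. Of the 6464 genes tested in limma 23% were so too, but THBS3 is below their minimum level, and the share at its read depth was not taken. The mean was 2.34 ± 0.619 RPM (SD, n = 3) after LIX1L siRNA and 8.10 ± 3.38 RPM (SD, n = 2) with control siRNA. Over pooled reads, 112 in siLIX1L libraries and 277 in controls, the level was 3.56-fold lower; counting error alone gives an exact 95% interval from 2.85 to 4.48. THBS3 was under the FPKM minimum; edgeR gave a log2 fold change of -1.82 (adjusted p = 0.0650, where 1.44% of genes passed, 0.883% lower) and DESeq2 one of -1.80 (adjusted p = 0.00250, where 12.6% passed, 6.24% lower). An exact permutation test of log2 RPM, with the one-sided p doubled, gave p = 0.2, the smallest this test can give for 3 against 2 libraries. Groups that do not overlap fix this value, and FN1, POSTN and THBS1 had it too. The gene shares 155208699 to 155209051 with the opposite-strand gene MTX1, which had 248 to 325 reads in siLIX1L libraries and 311 and 482 reads in control 1 and 2, and another antisense gene overlaps it; whether counting kept the strand is not stated, so reads of the overlap cannot be assigned. Opposite-strand genes also overlap SPARC, THBS2, TNC and THBS1, of which the 2 in the files, DEC1 in TNC and FSIP1 in THBS1, had 33 reads or fewer in each library.

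**Figure D2:**
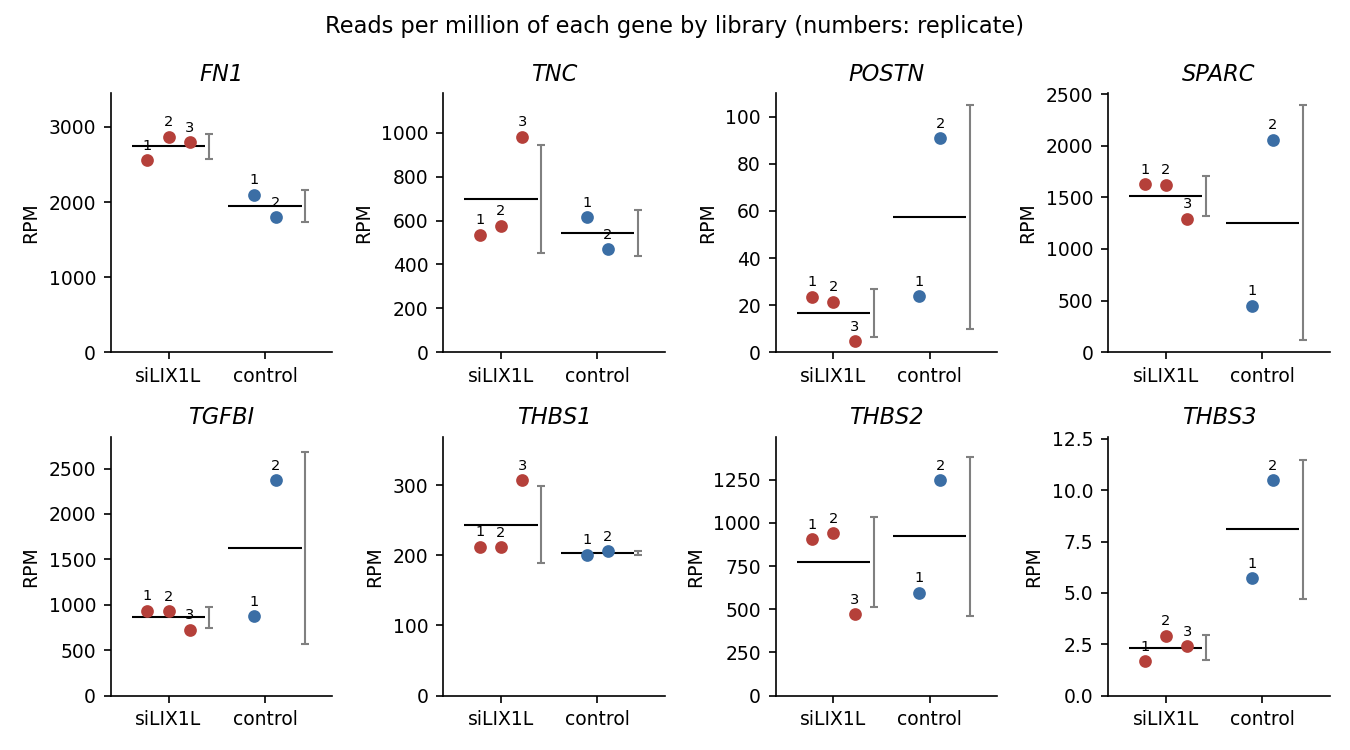
Level of each gene in each library in RPM, siLIX1L left and control right, with the replicate number over each point, the group mean as a black line and the SD as a grey bar. The groups of FN1, higher in siLIX1L libraries, and of THBS3, lower, do not overlap, and those of THBS1 and POSTN are parted only narrowly. Of the 6464 genes tested in limma, 46.5% had groups that did not overlap. THBS3 and POSTN were not among the genes tested. Control 2 stands alone in TGFBI and POSTN.

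**Figure D3:**
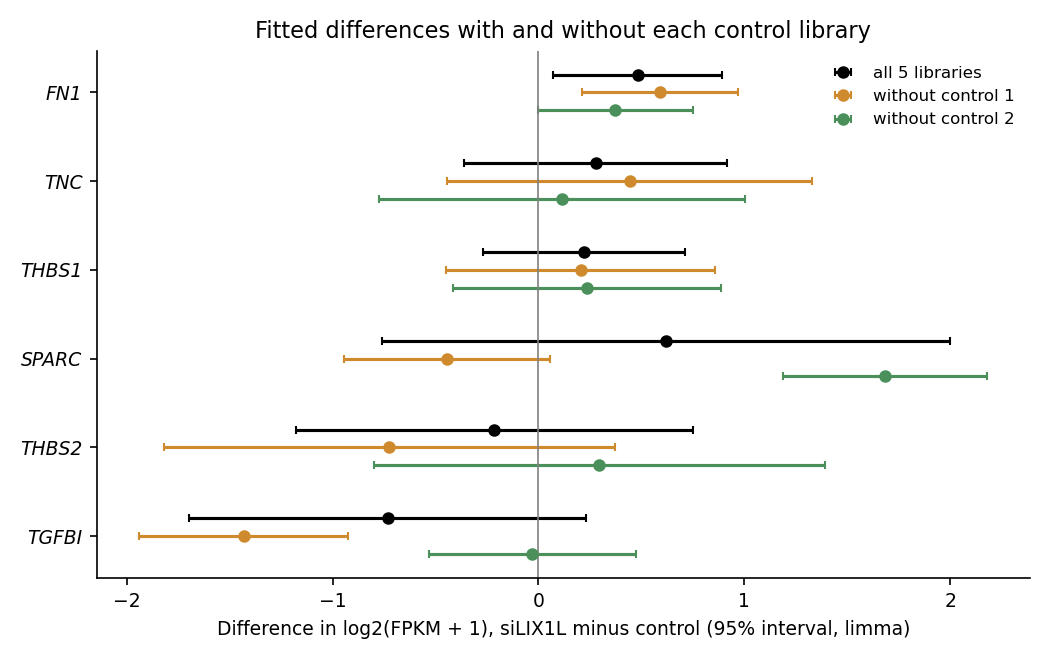
Difference in log2(FPKM + 1) between siLIX1L and control libraries with its 95% interval from limma, for the 6 genes above the minimum level, with all libraries and without each control. FN1, TNC and THBS1 keep a positive sign, the sign for SPARC and THBS2 turns with the control left out, and TGFBI lies near 0 without control 2.

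Counted over the list, none of the 6 members tested passed limma's adjusted p of 0.05, against 1.87% of all genes tested; 1 of the 6, FN1, had an unadjusted p under 0.05, as had 27.6% of all genes tested. EdgeR called none of 8, against 1.44% of all genes; 4 of the 8 had an unadjusted p under 0.05, against 26.1% of all genes. DESeq2 called 1 of 8, THBS3, against 12.6% of all genes. Of the 6, 4 had a positive difference, beside 49.4% of all genes tested. The median over the 6 was 0.25, beside -0.0054 over all genes tested. FN1 and THBS1 were the 2 of the 6 whose groups did not overlap, both with siLIX1L libraries higher, beside 23.5% of all genes tested not overlapping in that direction and 46.5% in either.

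Across libraries the 8 genes fell into unlike profiles, measured as the root mean square difference of log2(RPM + 0.5) after each gene was centred on its own mean over the 5 libraries. FN1, TNC and THBS1 were nearest to each other, at 0.18 for TNC and THBS1, 0.24 for FN1 and THBS1 and 0.30 for FN1 and TNC. The measure was not scaled to the spread of each gene. Genes that varied little, such as FN1, can therefore lie near each other without rising and falling together. THBS2 and TGFBI were 0.36 apart. The farthest pair was TNC and POSTN, at 1.65: TNC was highest in siLIX1L 3, where POSTN was lowest. SPARC stood apart through control 1, 1.48 below its own mean.

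**Figure D4:**
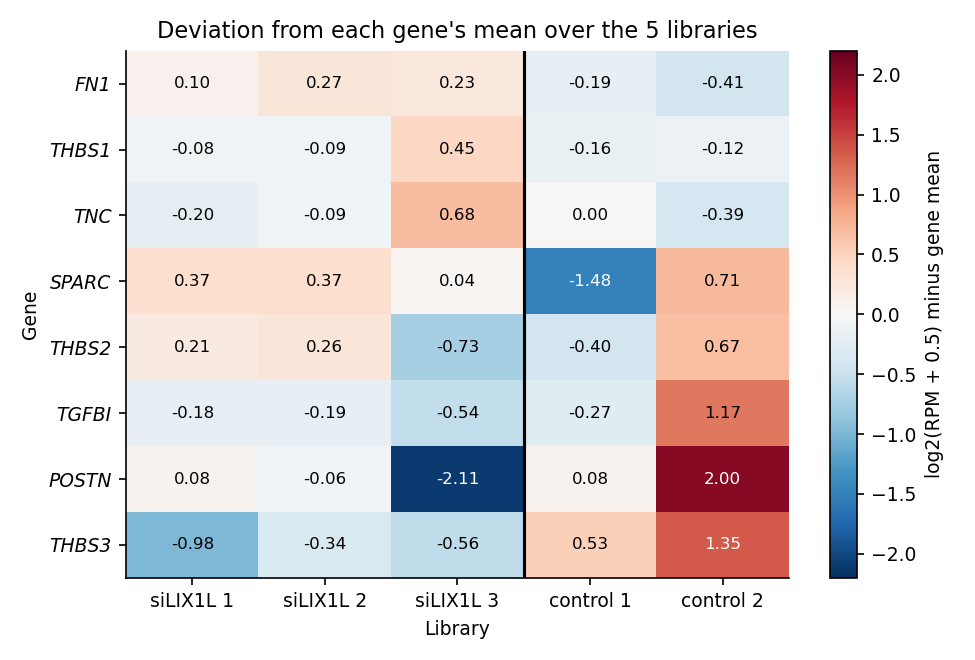
Deviation of each gene in each library from its own mean over the 5 libraries, in log2(RPM + 0.5), with siLIX1L libraries left of the line and controls right. POSTN ranges from -2.11 in siLIX1L 3 to 2.0 in control 2, FN1 only from -0.41 to 0.27.

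By the same measure over 10403 genes with a mean of at least 100 reads, the genes nearest to POSTN were MMP2, a gelatinase (0.22), LXN, a carboxypeptidase inhibitor (0.42), and DCN, the matrix proteoglycan decorin (0.49), and no gene was within 0.2 of it. These 3 had, like POSTN, their lowest level in siLIX1L 3 and their highest in control 2. They were picked by nearness in these same libraries, so this likeness follows largely from the choice. The nearest to TGFBI were SLC16A3, a lactate transporter (0.061), TNS2, a tensin of focal adhesions (0.083), and PIDD1 (0.090). For THBS2 they were ABHD17A, RAB6B and TNFRSF19 (0.095 to 0.10), for SPARC BTN3A2, MXD4 and FHOD1 (0.19 to 0.21), and for THBS3 BCAM, MT-ND6 and MT-CO2 (0.14 to 0.19). FN1 varied little between libraries, and 15.9% of genes were within 0.2 of it, with TTF2, IRAK4 and ZNF470 nearest (0.023 to 0.036). THBS1 was nearest to NRXN3, BNIP2 and WWTR1 (0.025 to 0.050), and TNC to PPARA, PLCL2 and MRS2 (0.037 to 0.067). All 5 libraries enter each value, so these are descriptions of the same 5 libraries.

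Around these genes, 4 lists were examined. Over all genes tested, 27.6% had an unadjusted p under 0.05 in limma, 46.5% had groups that did not overlap (23% with siLIX1L libraries lower), and DESeq2 called 12.6% (6.24% lower). A positive difference in limma was found for 49.4%. The counts of the lists stand beside these shares. Other matricellular and adhesive glycoproteins numbered 18, of which 6 could be tested, none passed limma's threshold and 5 had negative differences, with a median of -0.38. VTN, vitronectin, was 0.537 ± 0.109 FPKM after LIX1L siRNA and 1.88 ± 0.694 FPKM with control siRNA (SD, n = 3 and n = 2, as for the genes that follow; limma adjusted p = 0.0503, and 0.000456 with DESeq2), with 0.444 to 0.656 FPKM in the siLIX1L libraries and 1.39 and 2.37 FPKM in the controls. VTN entered the limma test through the controls alone, the group where it was high. MFGE8, an integrin-binding milk fat globule protein, was 14.1 ± 0.349 FPKM after LIX1L siRNA and 20.2 ± 2.55 FPKM with control siRNA (limma adjusted p = 0.1201). For both, all siLIX1L libraries were below both controls, as in 4 of the 6, beside 23% of all genes. An unadjusted p under 0.05 was found for 3 of the 6, beside 27.6% of all genes; edgeR called none of 11, and DESeq2 called 1 of 11, VTN, beside 12.6% of all genes. SMOC2 and TNR had no reads in any library.

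Receptors numbered 20, with 11 tested and none past the threshold in limma (1 with an unadjusted p under 0.05) or edgeR; DESeq2 called 1 of 17, SDC2, lower, beside 6.24% of all genes. SDC4, a syndecan that joins integrins in adhesion to fibronectin, was 7.57 ± 2.82 FPKM after LIX1L siRNA and 12.7 ± 1.53 FPKM with control siRNA (limma adjusted p = 0.156), and ITGA3, an integrin α chain, was 23.7 ± 3.68 FPKM after LIX1L siRNA and 17.9 ± 0.0384 FPKM with control siRNA (limma adjusted p = 0.234). ITGA5, the α chain of the main fibronectin receptor, was 35.2 ± 13.4 FPKM after LIX1L siRNA and 37.0 ± 9.66 FPKM with control siRNA (limma adjusted p = 0.856). Its partner ITGB1 had 4.42 and 4.92 FPKM in siLIX1L 1 and 2 but 19.5 FPKM in siLIX1L 3, against 14.9 and 20.6 FPKM in control 1 and 2 (limma adjusted p = 0.269). ITGA5 and ITGB1 were chosen after their values were seen.

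Of 12 genes for fibronectin assembly, binding and cleavage, 8 were tested and none passed in limma (1 with an unadjusted p under 0.05) or edgeR; DESeq2 called 2 of 12, MMP2 and HTRA1, both lower, beside 6.24% of all genes. MMP2, which cleaves fibronectin and denatured collagen, was 0.755 ± 0.403 FPKM after LIX1L siRNA and 2.34 ± 1.53 FPKM with control siRNA (limma adjusted p = 0.148), and VCL, the focal adhesion protein vinculin, was 3.41 ± 0.492 FPKM after LIX1L siRNA and 2.56 ± 0.0552 FPKM with control siRNA (limma adjusted p = 0.230). Of 18 genes of the TGF-β system, 11 were tested and 1, TGFBR2, a TGF-β receptor, passed, beside 1.87% of all genes. It had 2.18, 2.42 and 2.29 FPKM in siLIX1L 1, 2 and 3, against 0.973 and 0.790 FPKM in control 1 and 2, a difference of 0.81 (SE 0.12, limma adjusted p = 0.0384) that missed the threshold without any 1 siLIX1L library (limma adjusted p = 0.0715 to 0.228) or with no minimum level (0.103). Both controls were under 1 FPKM, so TGFBR2 entered the limma test through the siLIX1L libraries alone, the group where it was high. EdgeR called it too, and DESeq2 called 3 of 18, TGFBR2 higher and LTBP4 and CCN2 lower, beside 12.6% of all genes. The 10 others did not pass, and the list's median was -0.11. Medians of the receptor and assembly lists were -0.11 and -0.14, beside -0.0054 over all genes tested.

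**Figure D5:**
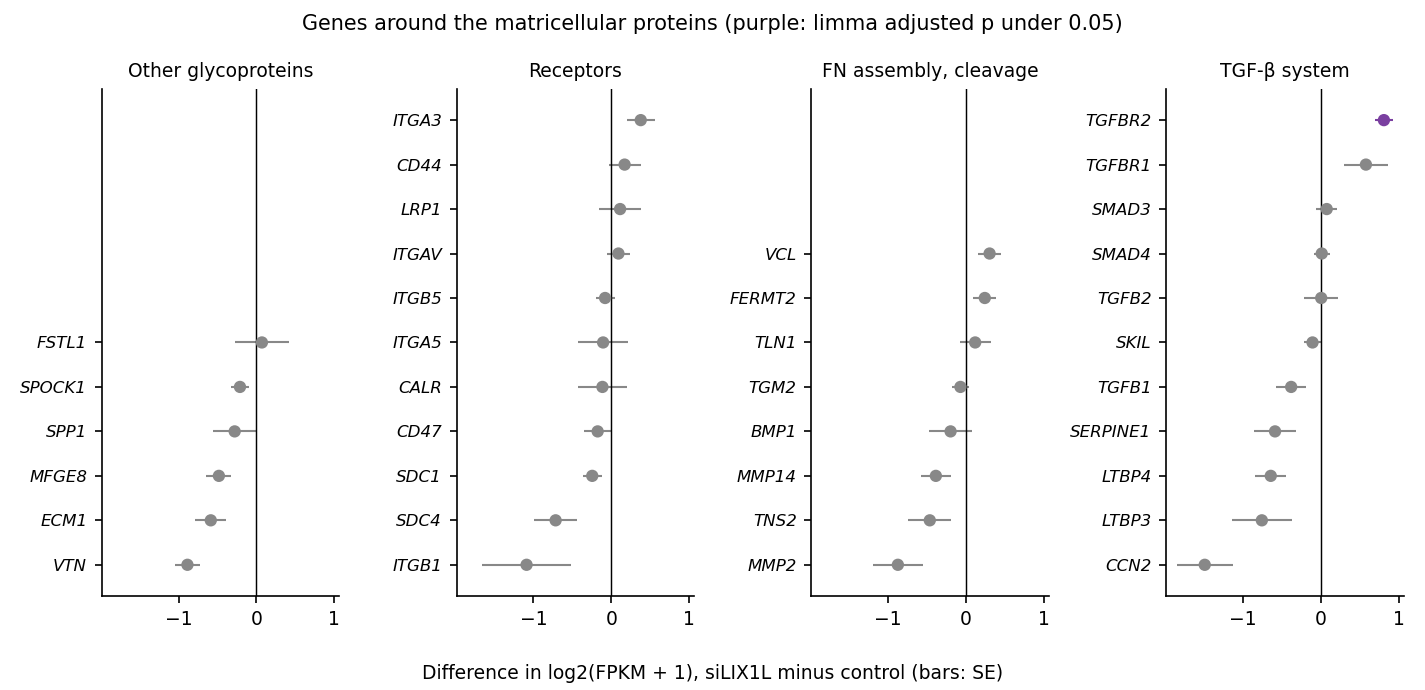
Difference in log2(FPKM + 1), siLIX1L minus control, with its SE for the tested genes of the 4 lists. TGFBR2, in purple, is the gene past limma's adjusted p of 0.05. Of 6 other glycoproteins 5 lie below 0, where 49.4% of all genes tested lie above 0.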

How the data were processed

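RNA was taken from LX-2 cells 48 h after transfection, per the labels' protocols. The authors deposited FPKM for 19936 genes in each of 5 libraries, and a raw read count and gene length for siLIX1L 3 alone, per the file headers. Bowtie 0.12.2 and the mouse build mm8 stand in the submitters' processing notes, although all gene IDs are human; the human build and the counter are not given in the sources. The lengths equal gene spans, introns included, in GENCODE 29 (GRCh38) for 98.2% of genes, so FPKM is low for genes with long introns. FPKM times length gave whole reads (tolerance 0.01) for 100% of values above 0, and in siLIX1L 3 they equalled the deposited counts at each of the 19936 genes.

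The 6464 genes reaching 1 FPKM in 2 or more libraries were tested with limma 3.58.1 in R 4.3.3 on log2(FPKM + 1), which understates changes of low genes (trend and robust eBayes, two-sided, Benjamini-Hochberg over all genes tested, threshold 0.05, no covariates). RPM is reads per 1000000 recovered reads; a count of 0 allows up to 3 reads, 0.164 to 0.202 RPM. The recovered reads were also tested with DESeq2 1.42.0 and with edgeR 4.0.16 under TMM scaling and its quasi-likelihood test. Other settings were the minimum level, median-ratio and quantile scaling, a pseudocount of 0.1, a replicate block, each library left out, and siLIX1L 1 and 2 averaged. On simulated reads for siLIX1L against control, limma (6389 genes) recovered 77.6% of 2-fold changes, with 9 false of 137 calls. The simulation gave all genes the same fixed dispersion, placed changes only in genes with many reads, and had no close pair like siLIX1L 1 and 2. It checks that the fit runs as intended and does not give the power or the false-call rate for the real libraries. Named are the 8 genes, LIX1L and, in each list, up to 4 genes past the threshold or else the 2 with the smallest p. The genes and lists were chosen with earlier results of these data known.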

Additional observations from a re-analysis of the deposited data

How the results depend on the processing

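Limma called 121 genes, a count that ranged from 0 to 1517 when 1 library was left out: 0 without any 1 siLIX1L library, 1517 without control 1 and 258 without control 2. It was 0 with no minimum level (3407 at an unadjusted p under 0.05) and 0 with siLIX1L 1 and 2 averaged (953), 233 with quantile normalization, 188 with edgeR and 1673 with DESeq2. Leaving out 1 library, the difference ranged from 0.37 to 0.59 for FN1, 0.037 to 0.44 for TNC, 0.054 to 0.31 for THBS1, -0.45 to 1.68 for SPARC, -0.72 to 0.30 for THBS2 and -1.43 to -0.031 for TGFBI. FN1, SPARC and TGFBI each passed without 1 of the controls, and THBS3 passed with DESeq2 (log2 fold change -1.80), as given above; FN1, TNC, THBS1 and TGFBI kept their sign in all 14 other settings. Without control 1, with 1 control library left and 24.1% of all genes past the threshold, MFGE8 and MMP2 passed too (limma adjusted p = 0.0349 and 0.0364). THBS2 turned to 0.090 with the replicate number as a block, where siLIX1L 3 adds nothing to the difference, and 94 genes passed, 44 of them among the 121; VTN passed (adjusted p = 0.0394) and TGFBR2 did not (adjusted p = 0.0683). Same-numbered libraries did not deviate together (r = -0.12 for number 1 and -0.10 for number 2, over 6464 genes). With 2 controls the deviation of 1 mirrors that of the other, so these values cannot exclude a pairing or a shared batch. The labels name neither. The causes of these changes were not tested. With 3 against 2 libraries, a difference such as that of SPARC is not resolved from the spread of the controls.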
